A study of Mus musculus with 3 samples.

Results

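The interleukin 1 axis is described here by 8 genes, *Il1a*, *Il1b*, *Il33*, *Il1rn*, *Il1r1*, *Il1rap*, *Il1r2* and *Il1rl1*, taken by symbol from the 32285 genes of the deposited tables. RNA was counted on Visium slides, on which each positional spot captures polyadenylated RNA from a small region holding several cells and each molecule is counted once by its unique molecular identifier (UMI). The samples were fresh frozen sections of full-thickness excisional back skin wounds of C57BL/6J mice, 1 section each on Day 3, Day 7 and Day 14 after injury. No group carried a further treatment or a modified allele, and no section of an unwounded mouse was analysed here. The paper labels intact skin and muscle beside the wound site on its sections. Spots were not divided by these regions here, so levels under tissue are not those of the wound alone. With 1 section per day there is no replicate, so no test between days was made and every 95% interval below covers counting error only.

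Interleukin 1 alpha and beta bind the receptor IL1R1, which then recruits the accessory chain IL1RAP and signals through MYD88 to NF-kB. The antagonist encoded by *Il1rn* occupies the same receptor without recruiting the accessory chain, and the decoy encoded by *Il1r2* binds the ligand but lacks the signalling domain. Interleukin 33 signals through IL1RL1, also called ST2, together with the same accessory chain. In skin, neutrophils and macrophages are known sources of interleukin 1 beta, keratinocytes store interleukin 1 alpha, and interleukin 33 is held in the nuclei of epithelial and stromal cells.

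The members lie on 4 chromosomes of the mouse genome (GRCm38, GENCODE M21 gene bounds) and all are annotated as protein coding. Both ligand genes lie on the minus strand of chromosome 2, *Il1a* from 129299610 to 129309972 and *Il1b* from 129364570 to 129371139. *Il1rn* lies on the plus strand of the same chromosome, far from the ligand genes, from 24336853 to 24351494. The receptor genes stand together on the plus strand of chromosome 1, *Il1r2* from 40074079 to 40125231, *Il1r1* from 40225080 to 40317257 and *Il1rl1* from 40429570 to 40465415. Also on plus strands are *Il1rap* (chromosome 16, 26581704 to 26730117) and *Il33* (chromosome 19, 29925114 to 29960718).

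The bases before the start of transcription are shown for the 3 members whose level was lowest relative to Day 3 on Day 7, *Il1b*, *Il1r2* and *Il1rn*, and for *Il1a*, the other interleukin 1 ligand, whose counts did not show such a difference. The sequences are from RefSeq, build GRCm38.p6, each with the 250 bases that precede 1 annotated start, 5′ to 3′ on the strand of the gene. Capitals mark the motifs that were searched, on both strands.
Il1b, chr2:129371140-129371389, minus strand: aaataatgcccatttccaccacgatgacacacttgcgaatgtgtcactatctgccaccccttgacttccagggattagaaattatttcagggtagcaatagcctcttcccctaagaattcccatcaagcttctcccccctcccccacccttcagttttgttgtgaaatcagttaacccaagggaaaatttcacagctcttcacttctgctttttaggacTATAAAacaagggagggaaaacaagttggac
Il1a, chr2:129309973-129310222, minus strand: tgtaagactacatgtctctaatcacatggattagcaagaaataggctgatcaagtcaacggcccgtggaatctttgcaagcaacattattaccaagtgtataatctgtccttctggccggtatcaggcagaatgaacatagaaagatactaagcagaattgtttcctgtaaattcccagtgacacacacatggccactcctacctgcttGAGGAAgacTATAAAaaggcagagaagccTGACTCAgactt
Il1rn, chr2:24336610-24336859, plus strand: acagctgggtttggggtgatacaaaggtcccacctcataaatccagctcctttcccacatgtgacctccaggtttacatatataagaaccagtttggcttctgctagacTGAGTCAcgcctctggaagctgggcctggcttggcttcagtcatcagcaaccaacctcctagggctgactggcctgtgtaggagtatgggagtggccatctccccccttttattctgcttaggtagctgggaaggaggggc
Il1r2, chr1:40085843-40086092, plus strand: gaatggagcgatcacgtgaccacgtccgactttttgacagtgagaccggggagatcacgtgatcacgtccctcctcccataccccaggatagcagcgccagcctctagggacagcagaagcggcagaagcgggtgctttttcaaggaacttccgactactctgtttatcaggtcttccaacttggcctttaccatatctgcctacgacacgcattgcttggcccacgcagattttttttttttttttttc
The motifs were GAGGAA (the core of PU.1 sites), TTGCNNAA (C/EBP), TGANTCA (AP-1), TATAAA (the TATA box) and the NF-kB site. Over all 32851 promoter windows of the table they were found in 23.3%, 9.56%, 6.75%, 12.4% and 3.90% respectively. The *Il1b* window held TATAAA from 31 to 26 bases before the start and no other of the motifs. The *Il1a* window held 3 of them, GAGGAA at 41 to 36 bases, TATAAA at 32 to 27 bases and TGANTCA at 12 to 6 bases before the start. The *Il1rn* window of the first of 3 annotated starts held TGANTCA at 141 to 135 bases. The *Il1r2* window, which lies inside the GENCODE bounds of the gene, held none. A match describes these letters only and says nothing of binding.

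The files mark the spots that lie under tissue, which number 664, 549 and 697 on the 3 days, and hold all other spots of the slide as well. In day order, marked spots held 1772259, 4442962 and 4611723 UMIs, with medians of 1513, 6687 and 4827 UMIs per spot. Unmarked spots held 1703210, 6457066 and 4715272 UMIs, and the marked area did not cover all RNA-rich spots. On Day 3, 198 unmarked spots reached 2000 UMIs, against 258 marked ones. The list of 10 skeletal muscle genes was higher outside than under the marked area on each day, at 72742 against 34845 CPM (UMIs per 1000000 UMIs) on Day 3. Of the 10 neutrophil markers, all were detected under tissue on Day 3, but 7 and 8 on the later days. Fewer cells of a type and less RNA per cell cannot be told apart in such sums.

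*Il1b*, the inducible ligand, was the member with the widest range between days. Under marked tissue its UMIs numbered 468, 14 and 21 in day order, or 264 CPM (95% interval 241 to 289), 3.15 CPM (1.72 to 5.29) and 4.55 CPM (2.82 to 6.96). Day 3 was high and the later days were low and did not differ beyond counting error. The Day 7 level was 83.8-fold lower than the Day 3 level, a log2 ratio of -6.39 (-7.27 to -5.63). Day 14 over Day 7 gave 0.53 (-0.51 to 1.62).

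*Il1a*, the constitutive ligand, was sparse throughout. It had 8, 17 and 31 UMIs under tissue, or 4.51, 3.83 and 6.72 CPM on Day 3, Day 7 and Day 14. None of its 3 ratios between days was distinguishable from no change, with Day 7 over Day 3 at -0.24 (-1.53 to 1.18), so a change smaller than these bounds was not detectable at this depth.

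*Il1rn*, the antagonist, had 231, 93 and 182 UMIs, or 130, 20.9 and 39.5 CPM. It was high on Day 3, lowest on Day 7 and intermediate on Day 14, with log2 ratios of -2.64 (-3.002 to -2.29) for Day 7 over Day 3 and 0.91 (0.55 to 1.29) for Day 14 over Day 7. *Il1r2*, the decoy, followed the same order with 298, 79 and 175 UMIs, or 168, 17.8 and 37.9 CPM. Its ratios were -3.24 (-3.62 to -2.88) and 1.09 (0.70 to 1.5).

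*Il1r1*, the signalling receptor, had a narrower range than *Il33*, the only other member with over 100 UMIs on each day. Its 124, 284 and 235 UMIs corresponded to 70.0, 63.9 and 51.0 CPM. Day 7 and Day 3 did not differ beyond counting error (-0.13, -0.44 to 0.19), and Day 14 was lower than Day 7 by a small amount (-0.33, -0.58 to -0.07). *Il1rap*, the shared accessory chain, had 95, 113 and 202 UMIs, or 53.6, 25.4 and 43.8 CPM, and was lowest on Day 7. Day 14 over Day 3 was -0.29 (-0.65 to 0.08), within counting error.

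The interleukin 33 pair was lower at each later day. *Il33* had 169, 171 and 102 UMIs under tissue, or 95.4, 38.5 and 22.1 CPM, with ratios of -1.31 (-1.62 to -0.99) and -0.80 (-1.17 to -0.44). Its receptor *Il1rl1* had 57, 52 and 17 UMIs, or 32.2, 11.7 and 3.69 CPM, with ratios of -1.46 (-2.03 to -0.89) and -1.67 (-2.55 to -0.85). The soluble and membrane forms of IL1RL1, like the secreted and intracellular forms of the antagonist, come from single genes and are not separated by these counts.

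Counting a gene as called when it differed at least 2-fold, 6 of the 8 members were lower on Day 7 than on Day 3 and 0 were higher, against 7.89% lower and 9.74% higher among 12541 genes with at least 20 UMIs over both sections. From Day 7 to Day 14, 1 member was lower (*Il1rl1*) and 1 higher (*Il1r2*), against 8.45% lower and 12.6% higher of all genes. Day 14 set against Day 3 gave 5 lower and 0 higher, against 8.14% and 16% of all genes. The median ratio of the members was -1.38, 0.66 and -1.92 in these comparisons, beside 0.04, 0.13 and 0.18 over all genes. The 3 comparisons share sections. With the mean of spot CPM in place of pooled CPM, 3 members rather than 6 were 2-fold lower on Day 7. *Il1r2* dropped below the 2-fold line for Day 14 over Day 7 with size factors (0.97) and with the mean of spot CPM (0.71).

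**Figure D1:**
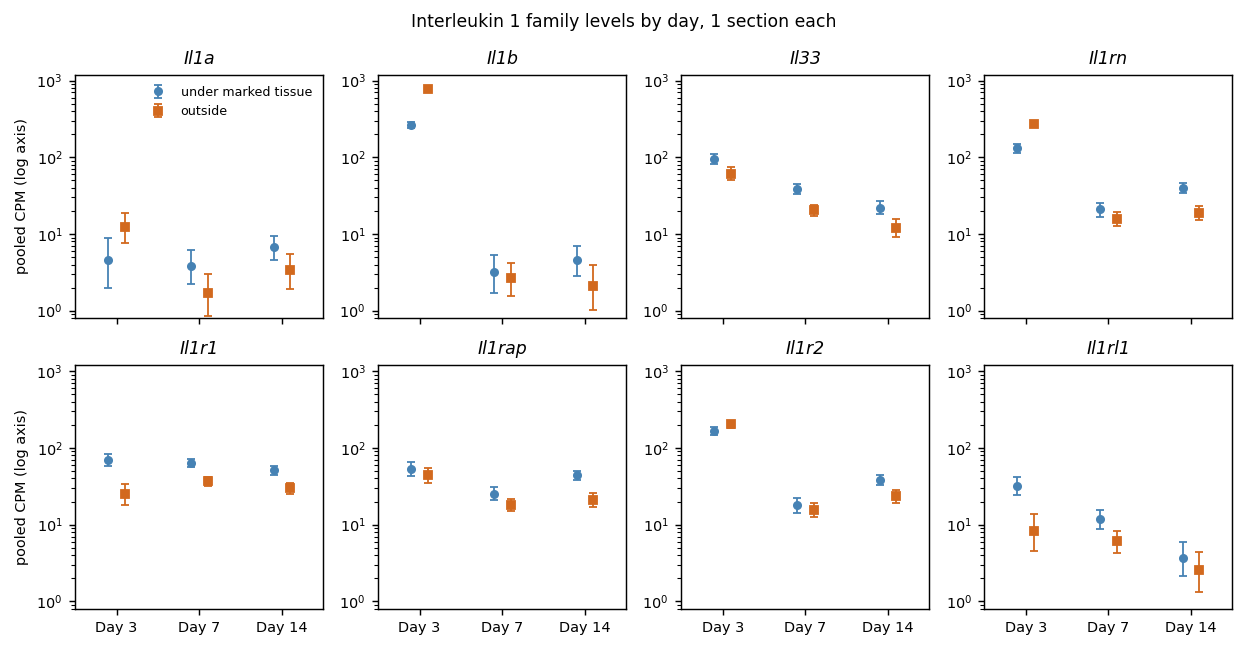
Pooled level of each member in CPM on a log axis, on Day 3, Day 7 and Day 14 (1 section each), under marked tissue (blue circles) and outside it (orange squares), with bars giving exact Poisson 95% intervals. *Il1b* stands at 264 CPM under tissue and 777 CPM outside on Day 3 and below 5 CPM on later days, while *Il1r1* stays between 51.0 and 70.0 CPM under tissue.

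The balance within the axis differed between days. There were 0.494 UMIs of *Il1rn* per UMI of *Il1b* under tissue on Day 3 (0.420 to 0.579), then 6.64 (3.77 to 12.6) and 8.67 (5.50 to 14.3) at the later times. For the decoy, 2.40 UMIs of *Il1r2* were counted per UMI of *Il1r1* at first (1.94 to 2.99), then 0.278 (0.214 to 0.358) and 0.745 (0.609 to 0.910). These ratios compare a pair of genes across days and do not rank the genes, whose capture can differ.

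Shares of spots with a UMI were compared after thinning every spot to 1000 UMIs, which left 426, 525 and 679 marked spots. *Il1b* was found in 17.1% of the Day 3 spots (13.7% to 21.1%, exact binomial), in 0.190% of the Day 7 spots and in 0.589% of the Day 14 spots, against 33.0%, 2.19% and 2.58% of all marked spots without thinning. In muscle-rich spots, which serve as a background, it was found in 0 of 38 on Day 3 (up to 9.25%), with a median of 1762 UMIs before thinning against 2373 for all spots. *Il1r2* was found in 13.8%, 1.71% and 3.09% of thinned spots and *Il1rn* in 9.15%, 2.29% and 2.80%. *Il1r1* was found in 5.16%, 5.71% and 4.71%. Muscle-rich spots held *Il1rn* in 5.26%, 2.08% and 1.54%, *Il1r2* in 2.63%, 0% and 0% and *Il1r1* in 0%, 6.25% and 0%, and *Il1b* in 0% on Day 7 and 1.54% on Day 14. Of the shares of all members on all days, that of *Il1b* on Day 3 was the only one whose interval lay above that of the muscle-rich spots. Muscle-rich spots numbered 38, 48 and 65, and a gene found in 0 of them still had upper limits of 9.25%, 7.40% and 5.52%. With so few spots, the other shares could not be judged against this background. At full depth on Day 3, muscle-rich over other marked spots gave log2 ratios of -2.47 for *Il1rn*, -2.19 for *Il1r2* and -2.36 for *Il1r1*. *Il33* gave -0.82 and *Il1rl1* -0.58, all without the 5 spots with most *Il1rl1*.

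Outside the marked tissue the members differed in direction on Day 3. *Il1b* had 1324 UMIs outside, 73.9% of all its UMIs on the slide, and 777 CPM against 264 CPM under tissue, a log2 ratio of 1.56 (1.40 to 1.71). *Il1rn* had 463 UMIs outside (272 CPM, ratio 1.06, 0.83 to 1.29) and *Il1a* had 21 (12.3 CPM, ratio 1.45, 0.22 to 2.83). *Il1r2* had 346 UMIs (203 CPM) and was slightly higher outside, at 0.27 (0.05 to 0.50). The signalling receptors were lower outside, *Il1r1* with 43 UMIs (25.2 CPM, -1.47, -2.01 to -0.96) and *Il1rl1* with 14 (8.22 CPM, -1.97, -2.93 to -1.11). *Il33* had 104 UMIs outside (61.1 CPM, -0.64, -1.01 to -0.28) and *Il1rap* 75 (44.0 CPM, -0.28, -0.74 to 0.17). Thus 3 of the 8 members were at least 2-fold higher outside and 2 were at least 2-fold lower, against 3.75% and 18.5% of 10974 genes.

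On the later days no member was 2-fold higher outside. On Day 7, 1 of 8 was 2-fold lower outside (*Il1a*, 1.70 against 3.83 CPM, the interval of the log2 ratio reaching 0.01), against 10.5% of genes lower and 3.73% higher. On Day 14, 3 of 8 were lower (*Il1b*, *Il1rn* and *Il1rap*), against 16% lower and 2.81% higher. *Il1r1* was lower outside on each day, at 36.5 against 63.9 CPM on Day 7 and 29.9 against 51.0 CPM on Day 14.

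The unmarked spots on either side of the marked area were unlike each other. Divided by slide position after the values were seen, the side with less muscle-list RNA on Day 3 had 1225 *Il1b* UMIs in 3220 spots, or 2264 CPM, 8.57-fold above the marked area, while the muscle side had 81 UMIs in 1059 spots, or 75.3 CPM. *Il1rn* stood at 778 CPM on the side away from muscle and 32.5 CPM on the muscle side, and *Il1r2* at 562 and 32.5 CPM. *Il1rap* (113 and 12.1 CPM) and *Il1a* (31.4 and 2.79 CPM) lay in the same order. *Il1r1* was highest under the marked area itself, at 70.0 CPM against 40.7 CPM away from muscle and 15.8 CPM on the muscle side. *Il1rl1* was likewise highest under the marked area, at 32.2 CPM against 9.24 and 5.58 CPM. The neutrophil list moved with the first of these patterns, at 1923 CPM under the marked area, 13414 CPM away from muscle and 394 CPM on the muscle side, and the epidermis list stood at 7671, 17006 and 1110 CPM. In the same order the muscle list stood at 34845, 34983 and 94853 CPM, so the sides are named only against each other. The side away from muscle was shallow, with 541152 UMIs in its 3220 spots, against 1075354 UMIs in the 1059 spots of the muscle side. On Day 14 the side away from muscle had 41.4 CPM of *Il1rn* and 65.1 CPM of *Il1r2*, beside 39.5 and 37.9 CPM under tissue.

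Depth moved with the Day 3 pattern. *Il1b* stood at 1529 CPM in unmarked spots with under 100 UMIs, at 1697 CPM in those from 100 up to 500 UMIs, at 777 CPM from 500 up to 2000 UMIs and at 346 CPM in those with 2000 or more, beside 234 CPM in marked spots with 2000 or more. Among spots with at least 500 UMIs the *Il1b* ratio was 0.93 and the *Il1rn* ratio 0.34, *Il1r2* turned to -0.23, and the count of members 2-fold higher outside went from 3 to 0. Without the neutrophil-rich spots, defined below, the ratios were 1.25 for *Il1b*, 0.86 for *Il1rn* and -0.12 for *Il1r2*. The 5 outside spots with most *Il1b* held 21 to 43 UMIs each and 10.6% of the outside total, all 5 were neutrophil-rich, and without them the *Il1b* ratio was 1.41. By distance from the marked area, in spot pitches (the distance between neighbouring spots), *Il1b* stood at 236 CPM up to 1.5 pitches. It stood at 924 CPM from 1.5 to 5, 631 CPM from 5 to 10 and 1124 CPM over 10 pitches away. In the same bands *Il1rn* stood at 111, 289, 235 and 398 CPM. The farthest band was shallow, with 384243 UMIs in 2826 spots. Whether RNA had spread from elsewhere on the slide into shallow spots was not tested.

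**Figure D2:**
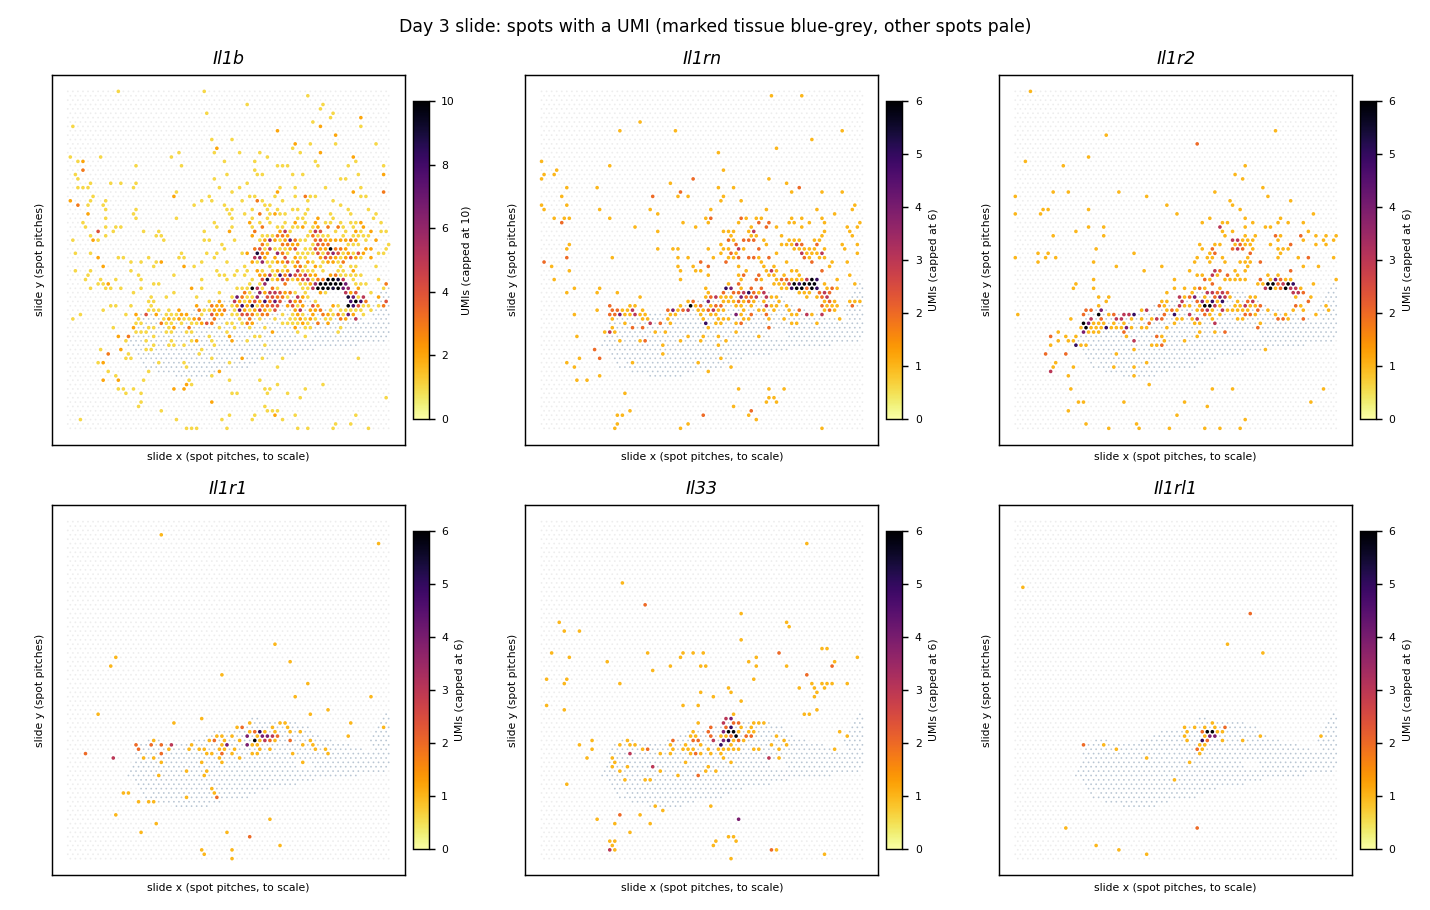
Day 3 slide drawn to scale in spot pitches, with each spot that held a UMI coloured by its UMIs of *Il1b*, *Il1rn*, *Il1r2*, *Il1r1*, *Il33* or *Il1rl1* (capped at 10 for *Il1b* and 6 for the others), marked spots in blue-grey and other spots pale. Many UMIs of *Il1b*, *Il1rn* and *Il1r2* lie beyond the upper edge of the marked area, with 1324 *Il1b* UMIs outside it. *Il1b* stood at 236 CPM up to 1.5 pitches from the marked area and at 1124 CPM over 10 pitches away. *Il1r1*, *Il33* and *Il1rl1* lie mostly inside, with 57 of 71 *Il1rl1* UMIs under tissue.

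Spots rich in a cell type were taken as the 10% of spots (of those with at least 500 UMIs) with the highest CPM of a list of 10 marker genes. Such spots are the top of a range and not a cell type. On Day 3, 52 of 520 marked spots were neutrophil-rich, 22 spots lay within 10% of the limit, and the neutrophil-rich spots were shallower than the others (median 1332 against 2067 UMIs). *Il1b* stood at 1312 CPM in them against 208 CPM in the other spots (2.66, 2.34 to 2.97), *Il1rn* at 650 against 105 CPM (2.63, 2.17 to 3.08) and *Il1r2* at 457 against 154 CPM (1.57, 1.04 to 2.06). These 3 of the 7 members with enough UMIs were at least 2-fold higher, against 11% of 9299 genes, while *Il1r1* stood at 60.2 against 71.2 CPM (-0.24, -1.89 to 1.02). In the 68 neutrophil-rich spots outside the marked area, 5 of 6 members were 2-fold higher against 21% of genes, with *Il1b* at 6692 against 116 CPM, *Il1rn* at 2052 against 50.1 CPM and *Il1r2* at 1556 against 57.5 CPM. None of these 68 spots touched the marked area, and their median distance from it was 5.10 spot pitches. Of the 68, 42 were also rich in the macrophage list, 42 in the mast cell list and 28 in the wound keratinocyte list. *Il1b*, *Il1rn* and *Il1r2* were also 2-fold higher in outside spots rich in these lists and in the sebaceous gland and granulation lists. The outside values are thus not particular to the neutrophil list.

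Both signalling receptors and *Il33* were higher in granulation-rich spots on Day 3, *Il33* not only there. In neutrophil-rich spots *Il33* stood at 181 against 92.1 CPM (0.97, 0.10 to 1.74) and *Il1rl1* at 36.1 against 32.3 CPM (0.16, -2.16 to 1.78). Without the 5 spots with most *Il1rl1*, described below, these ratios in neutrophil-rich spots were 1.13 and 1.03. In the 52 granulation-rich spots, chosen on matrix and contractile genes of wound fibroblasts, *Il1rl1* stood at 113 against 19.2 CPM (2.56, 1.76 to 3.36), *Il1r1* at 134 against 60.4 CPM (1.15, 0.52 to 1.74) and *Il33* at 178 against 82.9 CPM (1.103, 0.57 to 1.61). Those were 3 of 7 members, against 9.57% of 9299 genes. *Il1b* was higher by less, at 352 against 245 CPM (0.52, 0.17 to 0.87), while the ratios of *Il1rap* (0.31, -0.57 to 1.09), *Il1r2* (0.28, -0.20 to 0.72) and *Il1rn* (-0.12, -0.73 to 0.44) held 0. Of the 52 granulation-rich spots, 11 were also neutrophil-rich. Fibroblast-rich spots were chosen on collagen and other dermal fibroblast genes, and *Col1a1* made up 44.6% of the UMIs of that list on Day 3. In them *Il1b* (-0.92, -1.40 to -0.47), *Il33* (-0.98, -1.83 to -0.24) and *Il1rn* (-0.89, -1.58 to -0.27) were lower. *Il1rl1* had 1 UMI there (3.32 against 38.5 CPM), and *Il1r2* was higher (236 against 155 CPM, 0.61, 0.20 to 0.9995). In spots rich in wound keratinocyte genes *Il1b* (1.35, 1.03 to 1.67), *Il1rn* (1.46, 1.01 to 1.90) and *Il33* (1.56, 1.04 to 2.07) were higher, and 16 of those 52 spots were also neutrophil-rich. In muscle-rich spots *Il1b* had 2 UMIs (25.3 against 271 CPM).

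*Il1rl1* on Day 3 was concentrated in a small patch. Of its 57 UMIs under tissue, 26 (45.6%) came from 5 spots with at least 4 UMIs each, which lay within 2.65 spot pitches of each other and held 12510 to 23372 UMIs each, 5.26% of all UMIs under tissue. *Il33* (258 against 86.4 CPM, 1.58, 0.89 to 2.21) and *Il1r1* (215 against 61.9 CPM, 1.79, 1.02 to 2.49) were higher there, *Il1rn* was lower (53.7 against 135 CPM, -1.33, -2.96 to -0.08) and *Il1b* was not distinguishable (193 against 268 CPM, -0.47, -1.24 to 0.20). Of the 5 spots, 4 were granulation-rich, 2 macrophage-rich and 0 neutrophil-rich. Without them the *Il1rl1* ratio in granulation-rich spots was 1.46.

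On Day 14 the antagonist and the decoy were higher in spots rich in cornified layer genes, which encode proteins of the outer epidermal barrier. In the 69 such spots of 689, *Il1r2* stood at 120 against 24.7 CPM (2.27, 1.82 to 2.72), *Il1rn* at 107 against 28.5 CPM (1.91, 1.46 to 2.35), *Il1rap* at 77.6 against 38.3 CPM (1.02, 0.53 to 1.49) and *Il1a* at 12.4 against 5.80 CPM (1.098, -0.27 to 2.31). Those were 4 of 7 members at 2-fold or more, against 5.06% of 12229 genes. *Il1r1* showed no such difference, at 49.7 against 51.2 CPM (-0.04, -0.63 to 0.50). The cornified layer-rich spots were deeper than the others (median 7845 against 4697 UMIs), 13 spots lay within 10% of the limit, and 48 of the 69 were also epidermis-rich. In epidermis-rich spots the ratios were 1.92 for *Il1r2*, 1.65 for *Il1rn*, 1.34 for *Il1a* and 0.89 for *Il1rap*, with intervals above 0. Outside the marked area the 178 cornified layer-rich spots had *Il1r2* at 103 against 15.9 CPM and *Il1rn* at 64.2 against 13.5 CPM, and 4 of 5 members were 2-fold higher, against 22.4% of 11232 genes. The difference was not limited to Day 14. In Day 3 cornified layer-rich spots under tissue *Il1rn* stood at 232 against 113 CPM (1.04, 0.59 to 1.47) and *Il1r2* at 228 against 158 CPM (0.53, 0.09 to 0.94). On Day 7 *Il1rn* was the 1 of 6 members at 2-fold there.

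The few *Il1b* UMIs of the later days were read in the same way. On Day 7, 7 of 14 were in the 54 macrophage-rich spots (9.58 against 1.89 CPM, 2.34, 0.60 to 4.08), and on Day 14, 7 of 21 were in the 69 macrophage-rich spots (18.5 against 3.31 CPM, 2.49, 0.94 to 3.89). Neutrophil-rich spots on Day 7 had a like level on 3 UMIs (9.31 against 2.67 CPM, 1.80, -0.68 to 3.72). On Day 14 *Il1b* was also higher in fibroblast-rich (15.4 against 3.37 CPM, 2.19, 0.64 to 3.60) and granulation-rich spots (13.0 against 3.62 CPM, 1.85, 0.19 to 3.29). The Day 7 macrophage-rich spots had a median of 14087 UMIs against 6229 in the others. *Il33* on Day 14 was higher in granulation-rich spots (49.8 against 19.0 CPM, 1.39, 0.65 to 2.07) and macrophage-rich spots (45.0 against 20.1 CPM, 1.16, 0.32 to 1.93), where *Il1rap* was lower (21.7 against 46.3 CPM and 21.2 against 45.8 CPM). On Day 7 *Il1r1* was higher in fibroblast-rich spots (83.8 against 59.1 CPM, 0.50, 0.10 to 0.89) and *Il1r2* in epidermis-rich spots (35.2 against 16.1 CPM, 1.13, 0.18 to 1.98).

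**Figure D3:**
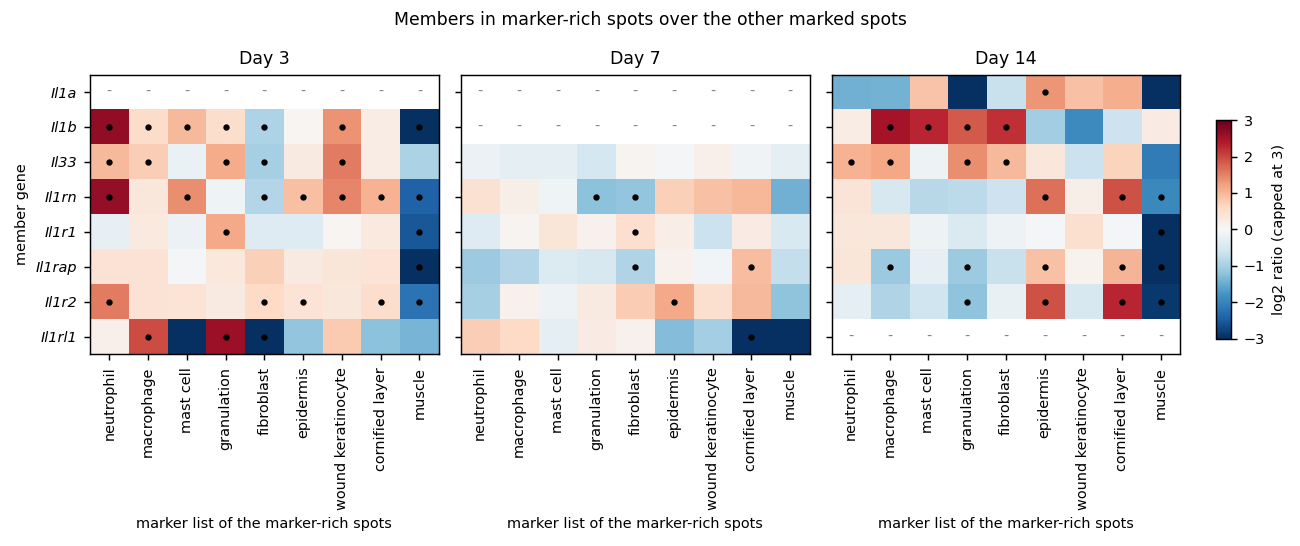
Log2 ratio of each member (rows) in marker-rich over other marked spots for 9 marker lists (columns) on each day, capped at 3 in both directions, with a dot where the 95% counting interval excludes 0 and a dash where the gene had under 20 UMIs. The Day 3 panel has *Il1b*, *Il1rn* and *Il1r2* high in neutrophil-rich spots (2.66, 2.63 and 1.57), and the Day 14 panel has *Il1rn* and *Il1r2* high in cornified layer-rich spots (1.91 and 2.27).

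**Figure D4:**
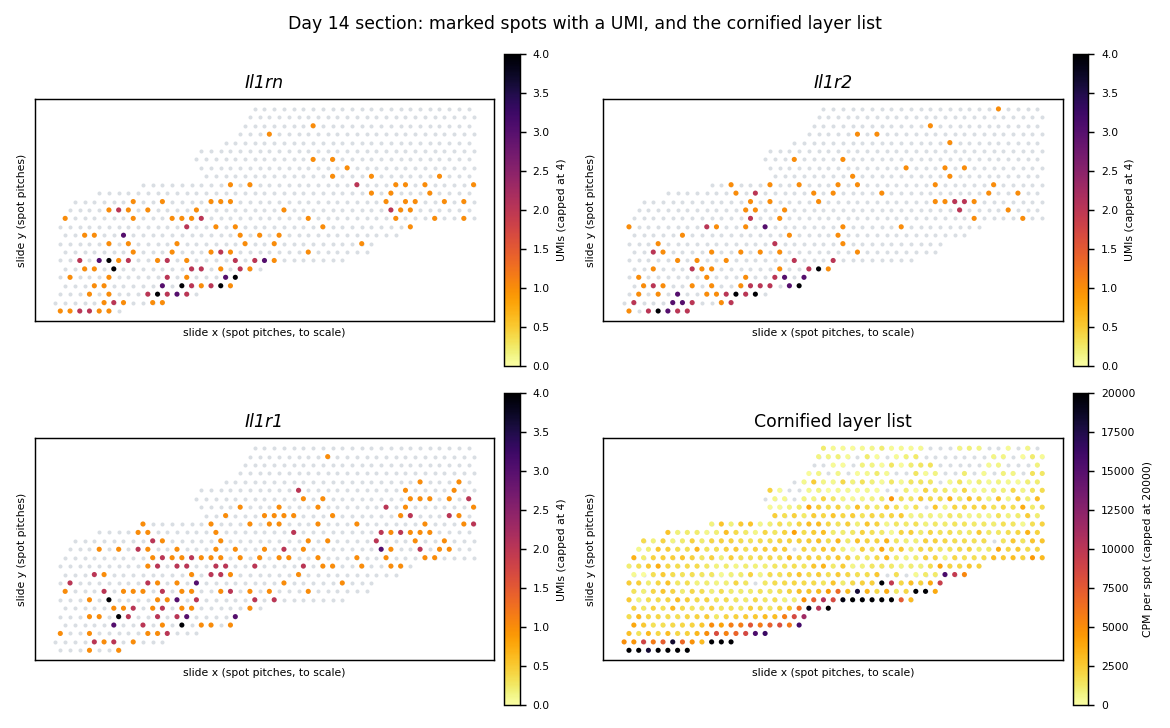
Marked spots of the Day 14 section drawn to scale in spot pitches, coloured by UMIs of *Il1rn*, *Il1r2* or *Il1r1* (capped at 4; grey, no UMI) and by CPM of the cornified layer list (colour scale capped). Spots with most *Il1rn* and *Il1r2* lie near the lower edge, where the cornified layer list is high, and *Il1r1* is spread over the section (49.7 against 51.2 CPM in cornified layer-rich and other spots).

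Sharing of spots was measured as the pooled CPM of a member in the marked spots that hold another member, set against all other marked spots. On Day 3, 49 of the 56 ordered pairs had enough UMIs, 29 ratios had an interval above 0, 14 were at least 2-fold and 1 had an interval below 0. On Day 7, 0 of 42 ratios had an interval above 0 and 0 below, and on Day 14, 14 of 49 did and 0 below. Of 9323 genes, 12.9% were at least 2-fold higher in Day 3 *Il1b* spots and 6.36% in Day 3 *Il33* spots. On Day 14 the shares were 2.03% of 12228 genes in *Il1r2* spots and 2% in *Il1rn* spots. No share of all genes was computed for the intervals or for spots of the other members, so the pair counts are not read as particular to these genes. Spots that hold a gene are deeper than the others: those with *Il1b* on Day 3 had a median of 3524 UMIs against 1091. After thinning to 1000 UMIs, 8 ratios on Day 3 and 0 on Day 14 had an interval above 0, with few UMIs behind each.

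Ligand, antagonist and decoy shared spots on Day 3. Of 219 marked spots with *Il1b*, 96 also held *Il1rn*, 97 held *Il1r2* and 52 held both, and outside the marked area 62 spots held all 3 genes. *Il1rn* stood at 158 CPM in the *Il1b* spots against 86.6 CPM elsewhere (0.87, 0.44 to 1.32) and *Il1r2* at 186 against 140 CPM (0.41, 0.05 to 0.78). In thinned spots these ratios were 1.88 (0.94 to 2.80) and 1.08 (0.34 to 1.79). Antagonist and decoy met in 69 spots, with *Il1rn* at 152 CPM in the *Il1r2* spots against 111 CPM (0.45, 0.07 to 0.84), but in thinned spots that ratio was -0.026 (-1.56 to 1.23) and the reverse one, for *Il1r2* in *Il1rn* spots, was 0.77 (-0.25 to 1.66). Outside the marked area the ratios in *Il1b* spots were 2.21 (1.93 to 2.49) for *Il1rn* and 2.32 (1.99 to 2.64) for *Il1r2*.

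*Il1b* and *Il1r1*, the ligand and its signalling receptor, met in 58 of the 82 marked spots with *Il1r1* on Day 3, and with *Il1rap* in 21. *Il1r1* stood at 85.2 CPM in the *Il1b* spots against 46.2 CPM (0.88, 0.29 to 1.51), but *Il1b* was at 257 CPM in the *Il1r1* spots against 267 CPM in the others (-0.05, -0.35 to 0.24). In thinned spots the ratios were 1.47 (0.0063 to 2.82) and 1 (-0.047 to 1.90). *Il1rn* was lower in the *Il1r1* spots (103 against 143 CPM, -0.46, -0.92 to -0.03), the 1 ratio below 0. Outside the marked area 19 spots held both *Il1b* and *Il1r1*, and in the 38 spots with *Il1r1* there, *Il1b* (550 against 790 CPM, -0.52, -0.96 to -0.12) and *Il1rn* (119 against 281 CPM, -1.24, -2.25 to -0.39) were lower.

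Interleukin 33 and its receptor shared spots on Day 3 at full depth. *Il33* and *Il1rl1* met in 20 of the 32 marked spots with *Il1rl1*, and *Il1rl1* stood at 71.1 CPM in the *Il33* spots against 12.7 CPM elsewhere (2.49, 1.61 to 3.44; 2.06 without the 5-spot patch). After thinning 1 spot held both, and the ratio was 1.04 (-4.49 to 4.08). *Il1r1* was also higher in *Il33* spots, at 112 against 49.1 CPM (1.19, 0.66 to 1.72; 1.86 after thinning, 0.06 to 3.35). At 2-fold these were 2 of 6 members, against 6.36% of 9323 genes. In *Il1b* spots the 2 of 6 members at 2-fold were *Il33* (1.195, 0.66 to 1.76) and *Il1rl1* (2.74, 1.42 to 4.42; 1.87 without the patch), against 12.9% of genes. After thinning these ratios were 0.64 (-0.63 to 1.76) and 0.95 (-2.44 to 3.56), so both intervals held 0. In *Il1r1* spots *Il1rl1* gave 2.15 (1.32 to 3.02), and 0.75 (-0.43 to 1.87) without the patch. On Day 7 *Il33* and *Il1rl1* met in 14 spots, with *Il1rl1* at 11.6 against 11.8 CPM (-0.02, -0.95 to 0.85). On Day 14 they met in 3.

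On Day 14 the antagonist and the decoy shared spots at full depth. In the 123 marked spots with *Il1rn*, of which 41 held *Il1r2*, *Il1r2* stood at 65.9 against 26.7 CPM (1.302, 0.86 to 1.75) and *Il1rap* at 59.1 against 37.7 CPM (0.65, 0.22 to 1.07). That was 1 of 6 members at 2-fold, against 2% of 12228 genes. In *Il1r2* spots 0 of 6 members reached 2-fold, against 2.03% of genes, with *Il1rn* at 61.9 against 31.3 CPM (0.98, 0.54 to 1.42) and *Il1r1* at 42.3 against 54.1 CPM (-0.35, -0.83 to 0.10). *Il33* spots had more *Il1rn* (1.26, 0.80 to 1.72) and *Il1r2* (0.94, 0.44 to 1.42). Spots with *Il1rn* were deeper than the others (median 9344 against 4254 UMIs), and after thinning 1 spot held both *Il1rn* and *Il1r2*, with a ratio of 0.80 (-4.58 to 3.44) for *Il1r2*.

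**Figure D5:**
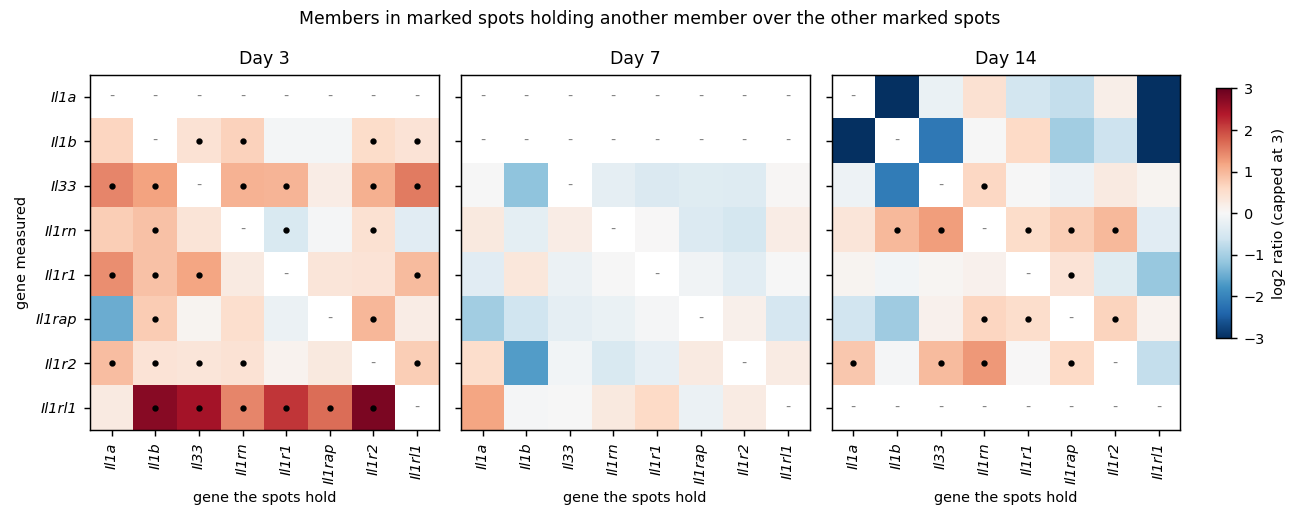
Log2 ratio of the member in each row in marked spots that hold the member in each column over the other marked spots, by day, capped at 3 in both directions, with a dot where the 95% counting interval excludes 0 and a dash where the gene had under 20 UMIs. Dots fill much of the Day 3 panel (30 in all), none stands in the Day 7 panel, and those of Day 14 (14) gather on *Il1rn*, *Il1rap* and *Il1r2*.

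Genes that the study followed were read in the same spots, at full depth only. Spots with *Il1b* on Day 3 were deeper than the others, and 12.9% of 9323 genes were at least 2-fold higher in them. In Day 3 *Il1b* spots, *Tgfb1*, the transforming growth factor ligand, stood at 112 against 37.5 CPM (1.58, 0.96 to 2.25), and the contractile genes *Acta2* (80.6 against 113 CPM, -0.48, -0.94 to -0.02) and *Tagln* (22.2 against 43.3 CPM, -0.96, -1.80 to -0.14) were lower. *Itgbl1*, an integrin beta-like secreted protein, stood at 63.0 against 89.5 CPM (-0.51, -1.02 to 0.01) and *Col1a1*, a collagen chain, at 24170 against 20391 CPM (0.25). In Day 3 *Il1r1* spots *Tgfb1* gave 0.73 (0.24 to 1.22), and the ratios of *Itgbl1* (0.37, -0.17 to 0.90), *Acta2* (0.30, -0.18 to 0.77) and *Tagln* (0.26, -0.62 to 1.11) held 0. On Day 14 the 18 spots with *Il1b* had more *Itgbl1* (133 against 54.5 CPM, 1.29, 0.64 to 1.89). Those spots held 21 *Il1b* UMIs, no share of all genes was computed for them, and the other study genes are not given there. *Il1b* was itself higher in fibroblast-rich and granulation-rich spots on that day. Whether the *Itgbl1* difference is particular to *Il1b* was not tested.

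The genes whose spot pattern was most like that of each member were read as Pearson r of log values on the day with most of its UMIs under tissue. Spots of 1 section share depth and neighbours, so r is a description. For *Il1b* on Day 3 (520 spots, 3043 genes) they were *S100a9* (0.45), *Srgn* (0.45) and *S100a8* (0.44), granule and alarm genes abundant in neutrophils. *Il1rn* had *S100a9* (0.36), *S100a8* (0.34) and *Clec4d* (0.34), and *Il1r2* had the chemokine *Cxcl2* (0.35), *Srgn* (0.34) and *S100a8* (0.33). *Il1rl1* had *Cxcl5* (0.30), a neutrophil-attracting chemokine, *Arg1* (0.28), the arginase of repair macrophages, and *Adam8* (0.28), a membrane protease. The 5-spot patch held 45.6% of the *Il1rl1* UMIs under tissue, 24.1% of *Cxcl5*, 21.7% of *Arg1* and 24.4% of *Adam8*. These r values were not computed without the patch. The other members had no r above 0.23: *Il1r1* on Day 7 was led by *Fstl1* (0.23), a secreted stromal glycoprotein, *Il33* on Day 7 by *Ppid* (0.21), *Il1a* on Day 14 by *Tmem63a* (0.22) and *Il1rap* on Day 14 by *Dsc3* (0.23), a desmosome component of epidermis.

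The rest of the pathway was read from 67 genes in 5 lists. On Day 7, 16 of the 56 genes with at least 20 UMIs were at least 2-fold lower than on Day 3 and 2 were higher, with a median log2 ratio of -0.40, beside 7.89% lower and 9.74% higher among all genes. The list of genes that interleukin 1 is known to induce in stroma had 8 of 15 lower and 1 higher, with a median of -2.88. Which cells held these RNAs was not tested, and other cells than stroma can hold them. The neutrophil list went from 1923 to 49.97 CPM under tissue between the same days. *Cxcl2*, a neutrophil-attracting chemokine, went from 1170 UMIs to 1 and then 0. *Ptgs2*, the inducible cyclooxygenase, went from 200 UMIs to 6 (-6.38, -7.85 to -5.24), *Cxcl5* from 365 to 11 (-6.38, -7.39 to -5.52), and the acute phase gene *Saa3* from 1613 to 68 (-5.89, -6.27 to -5.54). The collagenase *Mmp13* was the exception, from 37 to 222 UMIs (1.26, 0.75 to 1.80).

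Counts in the other 4 lists were 2 genes lower each, to be read against the same 7.89% of all genes. Of 14 adaptors and kinases, 2 were 2-fold lower on Day 7 (*Irak3*, an inhibitory kinase homologue, -1.28, and *Tab3*, -1.94) and 1 higher (*Irak2*, 1.52), with *Myd88*, the adaptor, at 61.5 and 32.9 CPM (-0.90, -1.27 to -0.53). Of 11 NF-kB genes, 2 were lower, *Nfkbia*, the inhibitor induced by NF-kB (-1.22, -1.44 to -1.004), and *Zc3h12a*, a ribonuclease of inflammatory transcripts (-1.24). Of 9 genes that cleave or release the ligands, 2 were lower, the inflammasome sensor *Nlrp3* (41 to 5 UMIs, -4.36, -6.06 to -3.02) and *Casp4* (-1.94), and the protease *Casp1* was at 11.8 and 12.2 CPM (0.04, -0.71 to 0.84). Of 7 other family members 2 were lower, *Il18rap* (-2.10) and the interleukin 36 ligand *Il1f9* (-1.46).

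From Day 7 to Day 14, 5 of 55 pathway genes were 2-fold lower and 5 higher, with a median of 0.20. These shares are close to or below the 8.45% lower and 12.6% higher of all genes, so the counts say nothing particular of the pathway. Higher were *Gsdma*, a pore-forming protein of epidermis (11.3 to 51.8 CPM, 2.20, 1.76 to 2.67), *Il1f9* (6.98 to 19.3 CPM, 1.47, 0.86 to 2.11), *Nfkbia* (81.3 to 222 CPM, 1.45, 1.27 to 1.62), *Lcn2* (8 to 30 UMIs) and *Ptgs2* (6 to 17 UMIs). Lower were *Mmp3* (-1.79, -1.96 to -1.62), *Saa3* (-1.89), *Gsdmd* (-1.14), *Capn2* (-1.01) and *Nfkbie* (-1.16). Against Day 3, Day 14 had 18 of 57 lower and 5 higher, beside 8.14% lower and 16% higher of all genes. Of the 18 lower ones, 10 were among the 14 tested genes of the list induced by interleukin 1.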

How the data were processed

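The authors deposited raw UMI counts for all 4992 spots of each slide with a list of marked spots, made with Space Ranger 1.3.0 on mm10 per the submitters' processing notes. All 3 slides share the 4992 barcodes by design. Whether counting used strand is not given in the sources used here, so *Il1b* and its antisense gene may share reads.

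UMIs were summed under and outside marked tissue and divided by all UMIs (CPM). Sums carry exact Poisson, shares Clopper-Pearson and ratios exact conditional binomial 95% intervals, which cover counting error only. Ratios in counts of genes needed 20 UMIs over both sides. Spots below 500 UMIs were left out of marker-rich spots and correlations. Thinning to 1000 UMIs used seed 1. No doublet caller was run, since spots are regions. The rule for named genes took the 8 members, the largest and smallest ratio of each pathway list or genes described by role, the 3 genes most like each member in spot pattern, and *Itgbl1*, *Tgfb1*, *Acta2*, *Tagln* and *Col1a1*. The members and lists were chosen with earlier results of these data known. Of 14 marker lists, 9 are drawn; the mast cell list was led by *Hdc* (68.4% of its UMIs on Day 3) and the T cell list by *Gata3* (67.4%), and neither is read as a cell type.

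Alternatives were the mean of spot CPM, other spot sets and denominators, scaling by edgeR 4.0.16 (TMM) or DESeq2 1.42.0 (median of ratios), other thinning depths, other limits of marker-rich spots and other UMI minimums. Leaving out neutrophil-rich spots, single groups of 5 spots or *Hdc*, and the division by side, were chosen after seeing the data. Intervals were tested on simulated counts. Calculations used Python 3.11.15, numpy 2.4.6, scipy 1.17.1, pandas 2.3.3, matplotlib 3.10.9 and R 4.3.3.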

Additional observations from a re-analysis of the deposited data

Results flagged for a closer look

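The values below were picked out because a log2 ratio had opposite signs on different days and the counting intervals did not overlap. Each day had 1 section, so the difference between days was not tested.

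For the level outside over under marked tissue, *Il1b* gave 1.56 on Day 3, -0.26 on Day 7 and -1.102 on Day 14, *Il1a* gave 1.45, -1.17 and -0.99, and *Il1rn* gave 1.06, -0.41 and -1.06. *Il1r2* gave 0.27 on Day 3 and -0.70 on Day 14.

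For spots that hold another member, *Il1rl1* in *Il33* spots gave 2.49 on Day 3 and -0.023 on Day 7. *Il1r1* in *Il33* spots gave 1.19 and -0.18 on the same days, and *Il33* in *Il1r1* spots gave 1.03 and -0.43. *Il1r2* in *Il1rn* spots gave -0.46 on Day 7 and 1.302 on Day 14, and *Il1rn* in *Il1r2* spots gave -0.52 and 0.98. *Il1rn* in *Il1r1* spots gave -0.46 on Day 3 and 0.54 on Day 14.

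For spots rich in a marker list, *Il1r2* in neutrophil-rich spots gave 1.57, -0.99 and -0.29 in day order. The neutrophil list itself stood at 1923, 49.97 and 44.7 CPM under tissue on these days. In granulation-rich spots *Il33* gave 1.103, -0.52 and 1.39 on Day 3, Day 7 and Day 14, *Il1r1* gave 1.15 on Day 3 and -0.42 on Day 14, and *Il1r2* gave 0.28 and -1.22. In fibroblast-rich spots *Il1b* gave -0.92 on Day 3 and 2.19 on Day 14, *Il33* gave -0.98 and 0.97, *Il1rap* gave 0.71 on Day 3 and -0.91 on Day 7, and *Il1rl1* gave -3.53 on Day 3, with 1 UMI in those spots, and 0.14 on Day 7. In wound keratinocyte-rich spots *Il1b* gave 1.35 on Day 3 and -1.92 on Day 14, and *Il33* gave 1.56 and -0.65. In mast cell-rich spots *Il1rn* gave 1.40 on Day 3 and -0.82 on Day 14, and the Day 3 value was -0.29 when *Hdc*, which made up 68.4% of the list, was left out.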

How the results depend on the processing

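No paired analysis was possible because each day had 1 section. With 1 section per day, no variation between animals was measured, and Day 3 had the fewest UMIs under tissue. Of 1494 values recomputed for 353 results, 11 had the opposite sign to a result whose interval excluded 0. Sign changes of results whose interval held 0 were not counted, such as *Il1b* in Day 3 *Il1r1* spots after thinning. TMM and DESeq2 factors shifted members by at most about the shift of all genes (medians 0.13 for Day 14 over Day 7, and 0.18 when Day 14 was set against Day 3). The causes of the changes below were not tested unless the setting itself names them.

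Between days, the mean of spot CPM gave 3 members 2-fold lower on Day 7 than on Day 3, and *Il1r1* at 0.062 for Day 14 over Day 3. Members 2-fold higher on Day 14 than on Day 7 numbered 0 with the mean of spot CPM, every spot of the slide, TMM or DESeq2 factors, and 2 without the neutrophil-rich spots.

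Outside over under on Day 3, spots with at least 500 UMIs gave 4 members 2-fold lower, 0 higher and *Il1r2* at -0.23. Leaving out neutrophil-rich spots gave *Il1r2* at -0.12. The mean of CPM of spots with at least 50 UMIs gave 0 lower and 5 higher, with *Il33* at 0.74 and *Il1rl1* at 0.12. Members lower outside on Day 7 numbered 3 beyond the adjacent spots, 3 with at least 500 UMIs, 2 with the mean of spot CPM and 0 without mitochondrial, haemoglobin and muscle genes. On Day 14 they numbered 0 without those genes, 1 without neutrophil-rich spots and 1 with the mean of spot CPM.

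Shared spots with an interval above 0 numbered 8 on Day 3 and 0 on Day 14 after thinning, and 17, 1 and 6 on Day 3, Day 7 and Day 14 when 2 UMIs were required. On Day 7 they numbered 4 in adjacent spots and 4 over every spot of the slide. In Day 3 *Il1r2* spots thinning gave *Il1rn* at -0.026 and *Il1rap* at -0.27. Adjacent spots gave *Il1rn* at 0.62 around *Il1r1* on Day 3 and *Il1rap* at -0.22 around *Il1r2* on Day 14.

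In Day 3 neutrophil-rich spots, 5 members were 2-fold higher once the 5 spots with most *Il1rl1* were left out. Without *Hdc* in the mast cell list, *Il1b* gave -0.16 and *Il1rn* -0.29. With at least 50 UMIs, pathway genes 2-fold higher numbered 1 on Day 7 against Day 3. They numbered 3 on Day 14 against Day 7, and 2 against Day 3.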

Other observations

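Interleukin 36 and interleukin 18 genes of the same family were read under tissue as well. *Il1f6*, which encodes interleukin 36 alpha, had 0, 17 and 24 UMIs in day order. *Il1f5*, which encodes the interleukin 36 receptor antagonist, stood at 20.3, 16.9 and 20.4 CPM, *Il1f9*, an interleukin 36 ligand, at 19.2, 6.98 and 19.3 CPM, and the receptor gene *Il1rl2* at 44.6, 24.5 and 23.0 CPM. *Il18* stood at 25.4, 22.7 and 29.1 CPM, with no ratio between days beyond counting error.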
